A study of Mus musculus with 30 samples.

Results

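The Wnt ligands Wnt2, Wnt4 and Wnt5a and the secreted Wnt inhibitors Sfrp1, Sfrp2, Sfrp4, Frzb, Dkk2, Dkk3 and Wif1 were followed in the mouse sclera between 1 and 8 weeks of age. Each gene was represented by the transcript cluster that the platform annotation assigns to its symbol alone, and by the brightest over the 30 arrays where there was more than 1. All 10 genes were found this way, of 19938 genes with a transcript cluster of their own, and none was removed for low signal. Only Wnt4 had a second transcript cluster.

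Wnt ligands are secreted lipid-modified glycoproteins that bind Frizzled receptors together with the coreceptors Lrp5 or Lrp6, or with Ror and Ryk receptors. In the canonical branch beta-catenin is spared from breakdown and acts with Tcf and Lef factors on target genes, whereas noncanonical branches act on cell polarity, movement and calcium. Secreted frizzled-related proteins (Sfrp1, Sfrp2, Sfrp4 and Frzb, which is also called Sfrp3) and Wif1 bind the ligands outside the cell, and Dickkopf proteins such as Dkk2 bind the Lrp coreceptors, whereas Dkk3 is a divergent member of that family. In the eye this pathway is known from retinal vessel growth, corneal and lens epithelium and the patterning of the optic cup.

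The platform was the Affymetrix Mouse Gene 1.0 ST array, whose probes are spread over each transcript. By the labels each array holds total RNA of a single sclera from a Balb/cJ mouse, with 6 arrays each at weeks 1, 2, 3, 6 and 8. The labels name no treatment and no genotype other than this albino strain, and the methods place the animals in the same family. All signals are deposited log2 values of probe-set brightness, so a difference of 1 is a fold change of 2, and the signal of a gene cannot be set against that of another gene because their probes differ.

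In 2 weeks the deposited values of an array followed from those of others. Week 2 replicate 4 equalled the mean of the other 5 week 2 arrays at all 35556 transcript clusters, with a largest difference from the week mean of 6.7e-05, and the mean of week 6 replicates 4 and 6 equalled the mean of their week, within 5e-05. The cause was not tested. Week 2 therefore held 5 independent arrays of 29 in all, and its medians, SDs and n are given over these 5. The SEs and adjusted p of the main results beside them come from the planned fit over all 30 arrays, unless another fit is named. The fit over all 30 arrays kept the week means as they are but understated their error, because 23 of its 25 residual degrees of freedom were free. A fit without replicate 4 and with a term for the week 6 pair, added after the data were seen, gave SEs with a median 9.3% larger in comparisons with week 2 and 4.2% larger in the others. No call of the 10 genes changed in any of the 10 comparisons between weeks, and the adjusted p of 3 uncalled values passed to above 0.05, as given beside them. Where a week 2 array was left out as a check, replicate 4, which holds a share of it, was left out with it.

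The array medians lay between 6.15 and 6.37, and the median correlation between arrays of the same week was between 0.968 and 0.987. The spread of the values within an array differed with age, with a mean interquartile range between 2.36 in week 2 and 2.75 in week 3. The 12 fibroblast and matrix markers (such as Col1a1, Lum and Dcn) were high at every age, with a mean signal per array between 8.46 in the dimmest week 2 array and 10.42 in the brightest week 1 array. Their weekly means over weeks 1, 2, 3, 6 and 8 were 10.08, 9.07, 9.94, 9.51 and 9.54, lowest in week 2. Markers of neighbouring tissues were also present and moved with age as well. The 14 photoreceptor markers averaged 8.96 in week 1 and 5.83 in week 2. Over weeks 1, 2, 3, 6 and 8 the 16 striated muscle markers averaged 10.80, 7.01, 6.74, 9.62 and 10.19. The 14 surface epithelium markers averaged 8.04, 10.47, 10.53, 10.17 and 10.68 in the same order, and the 12 retinal pigment epithelium markers 9.04, 5.96, 7.77, 8.30 and 7.30. Fewer cells of a type and less RNA per cell cannot be told apart in such bulk samples.

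More of the 10 genes were called in week 2 versus 1 than in any later successive comparison. A gene was called where its fold change was at least 2 and its Benjamini-Hochberg adjusted p was at most 0.05 in the limma fit over all 35556 transcript clusters. In week 2 versus 1, 4 of the 10 genes were lower by this rule (Wnt5a, Sfrp4, Frzb and Wif1), where 7.16% of all genes were lower. None of the 10 was called higher by its brightest transcript cluster, where 3.52% of all genes were. The second transcript cluster of Wnt4 was called higher (log2 fold change 1.38, limma adjusted p = 6.77e-07). All 10 passed the adjusted p alone, 3 of them upward (Wnt2, Wnt4 and Sfrp1), in a comparison in which 72.0% of all genes did so. In the fit that allows for the arrays tied to others, 8 of 10 did, against 68.2% of all genes. The median log2 fold change of the 10 genes was -0.87, and that of all genes was 0.05.

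Later calls between successive weeks were fewer, and those made were all upward. In week 3 versus 2, Sfrp2 and Dkk3 were higher, 2 of the 10 genes against 2.89% of all genes, and none was lower against 0.211%, while 6 of 10 passed the adjusted p alone, as did 55.1% of all genes. In week 6 versus 3, Sfrp4 alone was higher, where 1.94% of all genes were, and no member was lower, where 3.03% were. In that comparison 3 passed the adjusted p alone, against 56.0% of all genes, and none had arrays that did not overlap between the ages, against 35.0%. No member was called by limma in week 8 versus 6, where 0.231% of all genes were higher and 1.14% lower. There 2 members passed the adjusted p alone, as did 35.0% of all genes. An unadjusted p under 0.05 was found for 3 members, and at least the same 35.0% of all genes had it. Over the whole period, in week 8 versus 1, Sfrp4 was higher and Frzb was lower, where 3.21% of all genes were higher and 4.76% lower. There 6 passed the adjusted p alone, against 58.9% of all genes, and 2 (Wnt4 and Wnt5a) had arrays without overlap, against 23.5%. The median log2 fold changes of the 10 genes in these comparisons were 0.60, 0.12, -0.11 and -0.16, beside 0.01, 0.06, -0.05 and 0.04 for all genes. Successive comparisons share the arrays of a week, so they are given side by side and not as independent results.

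**Figure D1:**
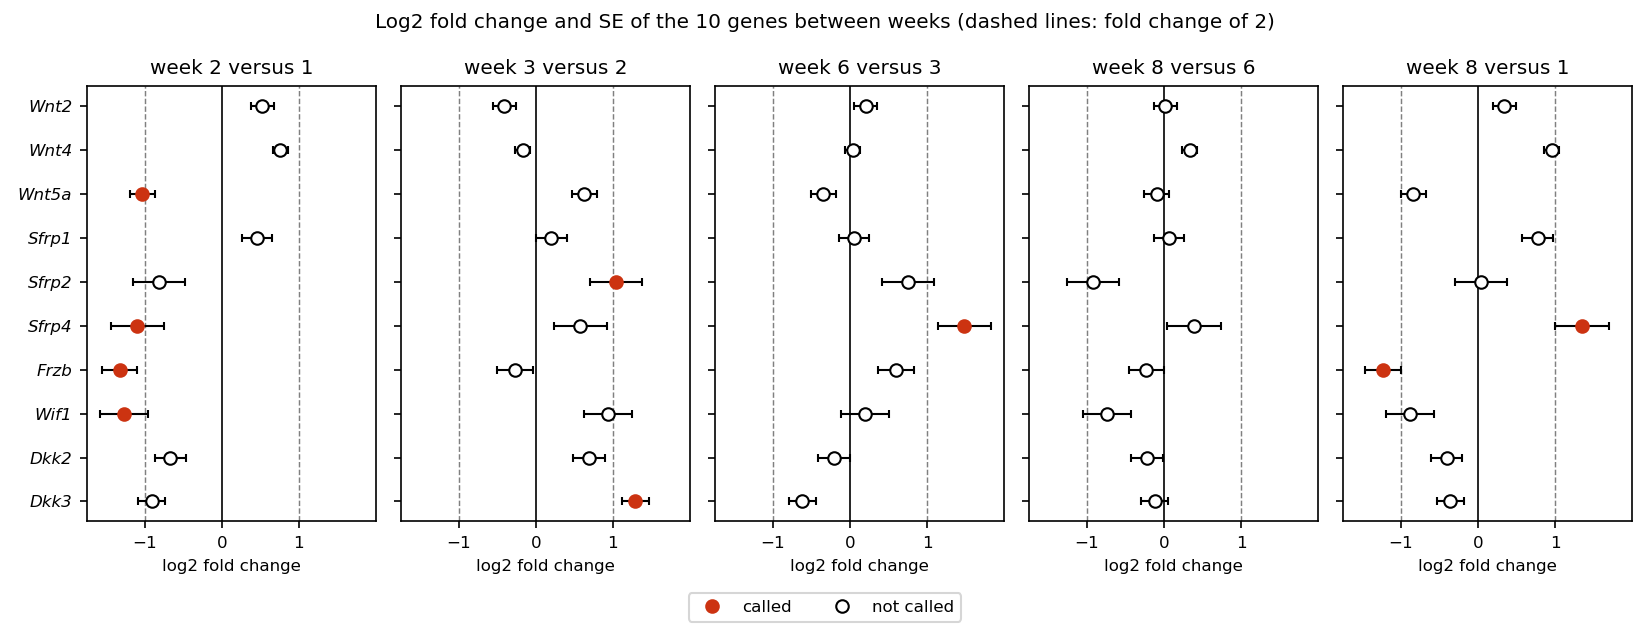
The log2 fold change (horizontal axis) of each of the 10 genes with its SE is plotted for the 4 successive comparisons and for week 8 versus 1, with filled points for genes called and dashed lines at a fold change of 2. Of the 4 genes called in week 2 versus 1 all lie left of the line, and those called in week 3 versus 2 (Sfrp2 and Dkk3) and in week 6 versus 3 (Sfrp4) lie to the right.

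The stretch before the start of transcription is shown for the 3 genes whose promoter window in RefSeq (GRCm38.p6) begins at the start of the gene record. They are Frzb and Wif1, which were both lower in week 2 versus 1, and Wnt4, which moved the other way. The brighter transcript cluster of Wnt4 did not reach a fold change of 2, and its second did. Each line holds the 250 bases upstream of the start, 5′ to 3′ on the strand of the gene. Capitals mark matches, on either strand, to the GC box GGGCGG or to the TATA box TATAAA.
Frzb: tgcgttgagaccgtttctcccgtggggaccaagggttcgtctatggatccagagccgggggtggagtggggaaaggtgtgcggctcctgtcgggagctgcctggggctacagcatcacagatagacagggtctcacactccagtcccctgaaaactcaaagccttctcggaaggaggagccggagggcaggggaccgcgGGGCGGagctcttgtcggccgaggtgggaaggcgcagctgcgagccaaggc
Wif1: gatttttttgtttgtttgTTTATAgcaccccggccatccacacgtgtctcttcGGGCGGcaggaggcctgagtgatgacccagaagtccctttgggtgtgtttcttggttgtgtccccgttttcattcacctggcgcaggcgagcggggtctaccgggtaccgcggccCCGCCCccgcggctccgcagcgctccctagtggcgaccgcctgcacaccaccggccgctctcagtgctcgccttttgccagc
Wnt4: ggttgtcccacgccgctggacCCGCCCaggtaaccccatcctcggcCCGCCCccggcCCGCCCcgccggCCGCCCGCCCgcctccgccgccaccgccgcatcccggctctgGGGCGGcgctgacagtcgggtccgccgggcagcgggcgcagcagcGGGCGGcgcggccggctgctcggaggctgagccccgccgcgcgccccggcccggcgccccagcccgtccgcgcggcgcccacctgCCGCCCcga

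These windows differed in base composition. The Frzb window lies at chr2:80447397-80447646 on the minus strand, has a GC content of 64.4% and holds 1 GC box. The Wif1 window lies at chr10:121033754-121034003 on the plus strand, has a GC content of 62.8% and holds 2 GC boxes and 1 TATA box on the opposite strand. The Wnt4 window, at chr4:137277385-137277634 on the plus strand, has 85.2% GC, at the percentile 99.9 of the 32851 windows of the table, and holds 8 GC boxes, of which 2 overlap. A GC box occurred in 32.7% of all windows and a TATA box in 12.4%, and the median GC content was 52.4%. Windows of the same length were found for 6 of the 10 genes (Wnt2, Sfrp2 and Dkk2 besides these). The Tcf and Lef core CTTTGAT was in none of the 6 and in 3.21% of all windows, searched on both strands, and a CCAAT box (CCAAT), which 33.8% of all windows held, was in the windows of Wnt2 and Dkk2. Such matches are a description of the letters in these windows.

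**Figure D2:**
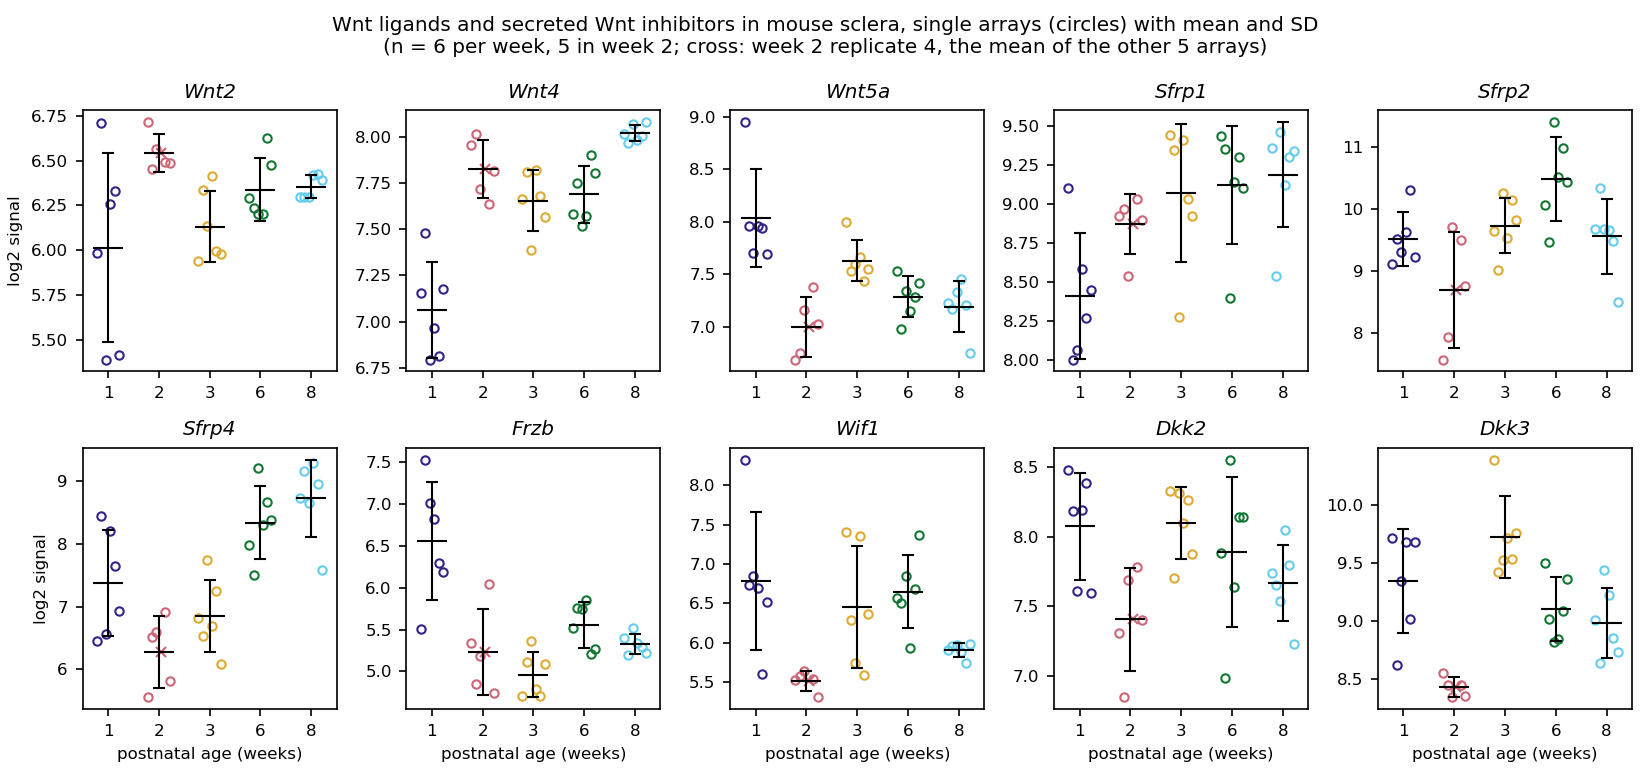
The log2 signal (vertical axis, a scale of its own for each gene) of every array is plotted against postnatal age in weeks, with the mean and SD of the 6 arrays of each week (5 in week 2, where a cross marks replicate 4, the mean of the others). The week 2 arrays hold the lowest weekly mean of Wnt5a, Sfrp2, Sfrp4, Wif1, Dkk2 and Dkk3, week 1 holds the highest mean of Wnt5a, Frzb and Wif1, and Sfrp4 is highest in weeks 6 and 8.

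Among the ligands, Wnt5a, the main ligand of the noncanonical branch, was lower in every week 2 array than in any week 1 array. Its signal lay between 6.69 and 7.38 in week 2 with a median of 7.02, against 7.69 to 8.95 in week 1 with a median of 7.95. The 2 ages did not overlap, and the brightest week 1 array (replicate 1) stood well above the other 5, which reached 7.96. The means were 7.0 ± 0.29 in week 2 (SD, n = 5) and 8.03 ± 0.47 in week 1 (SD, n = 6), a log2 fold change of -1.03 (SE 0.16, limma adjusted p = 3.2e-06). In the fit that allows for the tied arrays the SE was 0.175 and the limma adjusted p was 1.8e-05. The ranges of the 2 weeks did not overlap in 3 of the 10 genes (Wnt5a, Wnt4 and Dkk3), in a comparison where this held for 38.6% of all genes. The size of this change lay close to the fold threshold. Without week 1 replicate 1 the log2 fold change was -0.85, without week 2 replicate 1 it was -0.96 and without week 2 replicate 2 it was -0.97, none of which was called, although the adjusted p stayed at or below 8.62e-05. With quantile normalization it was -0.88, with array quality weights -0.99 and with the spread of each array as a covariate -0.72 (adjusted p = 0.0188).

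Wnt5a was then higher at week 3, where it averaged 7.63 ± 0.20, against 7.0 in week 2, a log2 fold change of 0.63 (SE 0.16, adjusted p = 0.00215) below the fold threshold. The arrays of weeks 3 and 2 did not overlap. Week 6 averaged 7.29 ± 0.20 and week 8 averaged 7.19 ± 0.24. Ordered from high to low the weeks ran 1, 3, 6, 8 and 2, and of the neighbours in this order only weeks 3 and 1 passed the adjusted p (0.0394), which was 0.0503 in the fit that allows for the tied arrays. Week 8 versus 1 gave a log2 fold change of -0.84 (adjusted p = 0.000105). The 9 melanocyte markers moved in a like way, with 7 of 9 lower in week 2 versus 1 and list means between 6.01 and 7.93 in week 2, against 8.99 to 10.36 in week 1, and their part in the Wnt5a change was not tested.

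Wnt4, a ligand best known from kidney tubule formation and female gonad development, went the other way. It lay between 7.64 and 8.01 in week 2 with a median of 7.81, against 6.80 to 7.48 in week 1 with a median of 7.06. The arrays of the 2 ages were fully apart. The log2 fold change was 0.76 (SE 0.10, adjusted p = 2.15e-07), short of the fold threshold. Afterwards Wnt4 averaged 7.65 ± 0.16 (week 3), 7.69 ± 0.15 (week 6) and 8.02 ± 0.05 (week 8), when all 6 arrays lay between 7.97 and 8.08. From high to low the weeks ran 8, 2, 6, 3 and 1, and only weeks 3 and 1, the last neighbours, differed by the adjusted p (1.95e-05). In week 8 versus 6 the log2 fold change was 0.33 (adjusted p = 0.00924), and the arrays did not overlap, as was the case for 16.5% of all genes.

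The second transcript cluster of Wnt4 gave larger changes. It averaged 7.60 in week 2 and 6.23 in week 1, a log2 fold change of 1.38 (SE 0.19, adjusted p = 6.77e-07), which was called, and 7.75 in week 8, a log2 fold change against week 1 of 1.52 (adjusted p = 4.41e-07), also called. The brighter cluster of Wnt4 gave 0.96 for week 8 versus 1, just short of a fold change of 2, and was called without week 1 replicate 2 (1.04), with array quality weights (1.01) and with quantile normalization (1.07). In week 6 versus 3 the 2 transcript clusters differed in direction, with 0.03 for the brighter (adjusted p = 0.79) and -0.57 for the second (adjusted p = 0.0129). Surface epithelium markers rose in week 2 versus 1, with 13 of 14 higher and list means between 9.99 and 10.93 in week 2, against 7.27 to 9.07 in week 1. Their part in the Wnt4 values was not tested.

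Wnt2, a canonical ligand known from lung and placental growth, was dim, at the percentile 43.9 of all genes. It lay between 6.45 and 6.71 in week 2 with a median of 6.49, against 5.39 to 6.71 in week 1 with a median of 6.12. The week 1 arrays were widely scattered, 2 of them at 5.39 and 5.42 and 1 as high as the brightest week 2 array. The log2 fold change of 0.53 (SE 0.15, adjusted p = 0.00304) was not called. In week 3 versus 2 it was -0.41 (adjusted p = 0.025), also not called, although no arrays overlapped. The means at weeks 3, 6 and 8 were 6.13, 6.34 and 6.36, and no neighbours in the order of weeks 2, 8, 6, 3 and 1 differed by the adjusted p, the smallest of which was 0.25.

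Of the secreted frizzled-related proteins, Frzb, an inhibitor first found in cartilage, had its highest level in week 1. It lay between 4.74 and 6.05 in week 2 with a median of 5.19, against 5.51 to 7.53 in week 1 with a median of 6.56. The 2 ages overlapped through 1 bright week 2 array (replicate 5) and 1 dim week 1 array (replicate 1), and the other arrays were apart. The means were 5.23 ± 0.52 in week 2 (SD, n = 5) and 6.56 ± 0.71 in week 1 (SD, n = 6), a log2 fold change of -1.33 (SE 0.23, adjusted p = 1.4e-05). The later means were 4.96 ± 0.27, 5.56 ± 0.27 and 5.33 ± 0.12 at weeks 3, 6 and 8. In week 3 versus 1 the log2 fold change was -1.60 (adjusted p = 2.37e-06) and no arrays overlapped, for Frzb alone of the 10 genes, where 3.07% of all genes were called lower and 26.4% did not overlap. Week 8 versus 1 gave -1.23 (adjusted p = 7.6e-05). The calls of week 2 versus 1 and of week 8 versus 1 held with each array left out in turn.

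The order for Frzb from high to low was week 1, 6, 8, 2 and 3. Week 6 averaged 5.56 and week 1 6.56, a fold change of -2.0 (adjusted p = 0.00067) that was just called, as 1 of the 10 genes where 2.83% of all genes were lower, and no other neighbours differed, with adjusted p of 0.325 or above. In week 6 versus 3 its log2 fold change of 0.60 (adjusted p = 0.0288) passed the adjusted p without reaching a fold change of 2. The gene was the dimmest of the 10, at the percentile 28.2 of all genes, and so was not tested when transcript clusters below the median signal were left out. Striated muscle markers also had their highest level in week 1 and were lower in week 2 versus 1 in 16 of 16 cases, with list means between 6.13 and 7.73 in week 2, against 9.30 to 11.53 in week 1. In week 6 versus 3, 16 of 16 were higher, and in week 8 versus 1, 3 of 16 were lower and 0 higher. Photoreceptor markers were lower in 14 of 14 cases in both week 2 versus 1 and week 8 versus 1. Retinal pigment epithelium markers were lower in 11 of 12 cases in each of these comparisons. The part of these lists in the Frzb values was not tested.

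Sfrp4, an inhibitor known from bone and from phosphate handling, had the widest range of weekly means among the 10 genes. It lay between 5.56 and 6.91 in week 2 with a median of 6.52, against 6.45 to 8.44 in week 1 with a median of 7.30. The week 1 arrays split into 3 that lay above every week 2 array by a clear margin and 3 near the week 2 values. The log2 fold change was -1.10 (SE 0.35, adjusted p = 0.00647). This call was lost without week 1 replicate 2 (-0.88), week 1 replicate 4 (-0.93), week 2 replicate 1 (-0.92) or week 2 replicate 6 (-0.98), with adjusted p between 0.0233 and 0.0433, and with the array spread covariate (-0.89, adjusted p = 0.202).

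The later increase of Sfrp4 was firmer. It lay between 7.50 and 9.20 in week 6 with a median of 8.34, against 6.08 to 7.74 in week 3 with a median of 6.76. Only the brightest week 3 array (replicate 3) lay above the dimmest week 6 array (replicate 2). The means of 8.34 ± 0.58 in week 6 and 6.85 ± 0.58 in week 3 (SD, n = 6 each) gave a log2 fold change of 1.48 (SE 0.35, adjusted p = 0.000657), which was called with each array left out in turn. Week 8 averaged 8.73 ± 0.61, with 1 array at 7.58 and the other 5 at 8.66 or above, against 7.38 ± 0.85 in week 1, a log2 fold change of 1.35 (adjusted p = 0.00192). From high to low the order was week 8, 6, 1, 3 and 2. Among the neighbours only weeks 6 and 1 passed the adjusted p (0.0201), with a log2 fold change of 0.96.

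Set against its lowest age, Sfrp4 was 4.16-fold higher in week 6 versus 2 (adjusted p = 1.93e-05) and 5.45-fold higher in week 8 versus 2 (adjusted p = 7.5e-06), with no overlap between the arrays in either. In week 6 versus 2, Sfrp2 and Wif1 were higher too, 3 of the 10 genes against 3.55% of all genes, and 3 did not overlap (Sfrp4, Wif1 and Dkk3) against 21.9%. In week 8 versus 2 Sfrp4 alone was higher, against 1.09% of all genes, and 4 did not overlap (Wnt2, Sfrp4, Wif1 and Dkk3) against 8.16%. Striated muscle markers moved in the same direction in week 6 versus 3, where 16 of 16 were higher and the list means lay between 8.95 and 10.60 in week 6, against 6.00 to 7.89 in week 3. In the same comparison fibroblast and matrix markers had 0 of 12 higher and 1 of 12 lower, with a median log2 fold change of -0.74. The part of either list in the Sfrp4 values was not tested.

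Sfrp2, which is made by many connective tissue cells, was among the brightest genes of the array, at the percentile 98.0 of all genes. It lay between 9.01 and 10.25 in week 3 with a median of 9.73, against 7.57 to 9.71 in week 2 with a median of 8.75. The week 2 arrays were the most scattered, with 2 below 8 and 2 near the week 3 median. The means were 9.73 ± 0.45 in week 3 (SD, n = 6) and 8.69 ± 0.94 in week 2 (SD, n = 5), a log2 fold change of 1.04 (SE 0.34, adjusted p = 0.0121). The call was lost without week 2 replicate 1 (0.76, adjusted p = 0.095), week 2 replicate 2 (0.85, adjusted p = 0.0745), week 3 replicate 3 (0.94) or week 3 replicate 5 (0.96), with quantile normalization (0.79, adjusted p = 0.072) and with the array spread covariate (0.43, adjusted p = 0.689).

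The highest Sfrp2 levels were those of week 6, at 10.48 ± 0.68, with a range of 9.46 to 11.40. Week 8 averaged 9.55 ± 0.60 and week 1 9.51 ± 0.43. In week 8 versus 6 the log2 fold change was -0.92 (SE 0.34, adjusted p = 0.0317), short of the fold threshold, and it passed without week 6 replicate 1 (-1.01), week 6 replicate 2 (-1.13) or week 8 replicate 2 (-1.08). In week 2 versus 1 it was -0.82 (adjusted p = 0.0324), and it was called without week 2 replicate 3 (-1.08) or week 2 replicate 5 (-1.02). The order was week 6, 3, 8, 1 and 2, in which only weeks 2 and 1, the last neighbours, passed the adjusted p, and they did not in the fit that allows for the tied arrays (0.0514). The fibroblast and matrix list was also lowest in week 2, with list means between 8.46 and 9.63, and its weekly mean was highest in week 1 at 10.08, not in week 6 at 9.51.

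Sfrp1 was alone among the frizzled-related proteins in having its lowest level in week 1. It lay between 8.54 and 9.03 in week 2 with a median of 8.93, against 8.00 to 9.10 in week 1 with a median of 8.36. In week 1, 1 array (at 9.10) was above all those of week 2, and the other 5 lay below the week 2 median. The log2 fold change of 0.46 (SE 0.20, adjusted p = 0.0417) was not called, and its adjusted p was 0.0642 in the fit that allows for the tied arrays. The later means were 9.07 ± 0.44, 9.12 ± 0.38 and 9.19 ± 0.34 at weeks 3, 6 and 8, and week 8 versus 1 gave 0.77 (adjusted p = 0.00191). Between successive later weeks the smallest adjusted p was 0.405.

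Wif1, which binds Wnt ligands through a domain of its own, was scattered at some ages and uniform at others. It lay between 5.30 and 5.64 in week 2 with a median of 5.54, against 5.60 to 8.33 in week 1 with a median of 6.71. Of the week 1 arrays, 5 lay above every week 2 array and 1 (at 5.60) lay within their range. The means were 5.52 ± 0.13 in week 2 (SD, n = 5) and 6.79 ± 0.88 in week 1 (SD, n = 6), a log2 fold change of -1.27 (SE 0.31, adjusted p = 0.000735). Without week 1 replicate 1, the brightest array, it was -0.96 (adjusted p = 0.00264) and was not called.

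In week 3 Wif1 averaged 6.46 ± 0.78, with 2 arrays above 7 and 2 below 6, against 5.52 in week 2, a log2 fold change of 0.94 (adjusted p = 0.0134) that was not called. It was called without week 3 replicate 3 (1.08) or week 3 replicate 5 (1.115), the 2 dimmest arrays of that week, and with quantile normalization (1.01). It averaged 6.65 ± 0.47 in week 6 and 5.91 ± 0.09 in week 8, where all 6 arrays lay between 5.74 and 5.98. Between weeks 8 and 6 the log2 fold change was -0.74 (adjusted p = 0.0606). In week 8 versus 1 it was -0.88 (adjusted p = 0.0183), not called, and -1.12 without week 1 replicate 5, which was called. The order was week 1, 6, 3, 8 and 2, and no neighbours differed by the adjusted p, the smallest being 0.152. At the percentile 43.5 of all genes, Wif1 was dim, and the 2 uniform weeks were those of its lowest signal.

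The Dickkopf genes shared a low week 2. Dkk3 lay between 8.35 and 8.56 in week 2 with a median of 8.45, against 8.63 to 9.72 in week 1 with a median of 9.51. All week 2 arrays were below all week 1 arrays. The log2 fold change of -0.91 (SE 0.17, adjusted p = 4.91e-05) did not reach the fold threshold, though it did so without week 1 replicate 2 (-1.055). In week 3 Dkk3 lay between 9.42 and 10.39 with a median of 9.63, so again no array of weeks 3 and 2 overlapped, as was the case for 3 of the 10 genes (Wnt2, Wnt5a and Dkk3) and 25.7% of all genes.

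Its means of 9.73 ± 0.35 in week 3 (SD, n = 6) and 8.43 ± 0.09 in week 2 (SD, n = 5) gave a log2 fold change of 1.29 (SE 0.17, adjusted p = 1.48e-06), the largest change of any of the 10 genes in week 3 versus 2. This call held with each array left out in turn, and with the array spread covariate the value was 0.91 (adjusted p = 0.046) and was not called. In week 6 versus 3 Dkk3 averaged 9.11 in week 6 and 9.73 in week 3, a log2 fold change of -0.62 (adjusted p = 0.0036) that was not called, and week 8 averaged 8.99 ± 0.30. The order was week 3, 1, 6, 8 and 2, where only weeks 8 and 2, the last neighbours, differed by the adjusted p (0.017). Beside the week 3 versus 2 change, 10 of 12 retinal pigment epithelium markers and 7 of 9 melanocyte markers were higher, with pigment epithelium list means between 7.44 and 8.05 in week 3, against 5.34 to 6.90 in week 2. Pmel and Mlana stand in both lists, so the counts are not separate. The part of these lists in the Dkk3 change was not tested.

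Dkk2, which can act as an agonist or antagonist depending on the coreceptor setting, changed less. It lay between 6.85 and 7.79 in week 2 with a median of 7.40, against 7.60 to 8.48 in week 1 with a median of 8.18. The ages overlapped, with 2 week 1 arrays among the brighter week 2 arrays. The log2 fold changes were -0.67 in week 2 versus 1 (SE 0.20, adjusted p = 0.0052) and 0.69 in week 3 versus 2 (adjusted p = 0.00648), neither of them called. The weekly means at weeks 3, 6 and 8 were 8.10 ± 0.26, 7.89 ± 0.54 and 7.67 ± 0.27, and no neighbours in the order of weeks 3, 1, 6, 8 and 2 differed by the adjusted p, the smallest being 0.354.

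The other genes of the pathway, 89 measured genes of the 90 listed (Tcf7 had no transcript cluster under that symbol alone), were followed in 7 lists. In week 2 versus 1, 4 of 89 were higher and 4 of 89 lower, beside 3.52% and 7.16% of all genes, with a median log2 fold change of 0.09. In week 3 versus 2, 3 were higher and 0 lower (2.89% and 0.211% of all genes), and in week 6 versus 3, 0 were higher and 4 lower (1.94% and 3.03%). Over the whole period, in week 8 versus 1, 1 was higher and 3 were lower (3.21% and 4.76%). In week 2 versus 1 the ligands Wnt7b (2.60-fold, adjusted p = 4.25e-07), Wnt3a (2.17-fold, adjusted p = 4.04e-08) and Wnt10a (2.15-fold, adjusted p = 1.67e-07) were higher. They were 3 of the 16 other ligands, beside 3.52% of all genes, and none of the 16 was lower, beside 7.16%. Wnt7b averaged 7.60 ± 0.31 in week 2 and 6.22 ± 0.35 in week 1, and it was still 2.41-fold higher in week 8 versus 1. Among the members, Wnt4 and Wnt2 were on this side of 0 and Wnt5a on the other.

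Among 9 other secreted inhibitors, Sostdc1, which binds Lrp coreceptors and bone morphogenetic proteins, showed the largest change. It lay between 6.17 and 6.78 in week 2 with a median of 6.30, against 7.76 to 9.23 in week 1 with a median of 8.82. No arrays overlapped, and the log2 fold change was -2.34 (SE 0.19, adjusted p = 2.4e-10). It was higher in week 3 versus 2 with a log2 fold change of 1.06 (adjusted p = 7.38e-05), a call that was lost with quantile normalization (0.99) and with the array spread covariate (0.39, adjusted p = 0.431). Sostdc1 was still lower in week 8 versus 1 (log2 fold change -1.66), a call that held under all 22 alternatives. The other 8 of these inhibitors were not called in any of the 5 comparisons. The R-spondin Rspo2, an agonist that acts through Lgr receptors, was lower in week 2 versus 1 (fold change -2.33, adjusted p = 7.48e-07), 1 of 5 agonists where 7.16% of all genes were lower.

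Of 24 receptors and coreceptors, the Frizzled receptor Fzd3 (fold change -2.40, adjusted p = 7.93e-08) and the glypican Gpc4 (fold change -2.19, adjusted p = 4.69e-06) were lower in week 2 versus 1, 2 of 24 where 7.16% of all genes were lower. The Gpc4 call was lost without week 2 replicate 2 (-0.99). Fzd8 (fold change -2.21) and the coreceptor Lrp5 (fold change -2.36) were lower in week 6 versus 3, with adjusted p of 3.46e-10 and 4.96e-10, again 2 of 24 beside 3.03% of all genes. Fzd3 and Lgr5, the receptor of R-spondins, were lower in week 8 versus 1 (fold changes -2.33 and -2.01). The Lgr5 call was lost without week 1 replicate 3, week 1 replicate 6, week 8 replicate 1 or week 8 replicate 5, with log2 fold changes between -0.98 and -0.89. The 2 genes of Wnt secretion, Porcn and Wls, were not called in any of the 5 comparisons.

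Of the 22 genes of intracellular transduction, only Dvl1, which relays the signal from Frizzled receptors, was called, with a fold change of -2.20 in week 6 versus 3 (adjusted p = 1.04e-10). Of 11 measured targets and feedback genes of beta-catenin, at most 1 was called in each of the 5 comparisons. Axin2, the target most used as a readout of the canonical branch, averaged 6.18 ± 0.27 in week 2 and 7.07 ± 0.18 in week 1, a log2 fold change of -0.89 (SE 0.13, adjusted p = 1.04e-06) that was not called, and 6.98 ± 0.29 in week 3. Ccnd1, a cyclin that is a target of many other pathways too, was higher in week 2 versus 1 (2.60-fold, adjusted p = 1.23e-06). Nkd2, a feedback inhibitor, was higher in week 3 versus 2 (2.34-fold, adjusted p = 1.14e-07), and so was the ligand Wnt2b (2.39-fold, adjusted p = 5.37e-07). Apcdd1, a membrane-bound inhibitor, was lower in week 6 versus 3 (fold change -2.05, adjusted p = 4.48e-10), a call that was lost without week 3 replicate 6 (-0.99) or without week 6 replicate 2 (-0.96). In week 8 versus 6 none of the 89 was called by limma, with 33 past the adjusted p alone, as were 35.0% of all genes. An unadjusted p under 0.05 was found for 42 of the 89, and at least the same 35.0% of all genes had it.

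**Figure D3:**
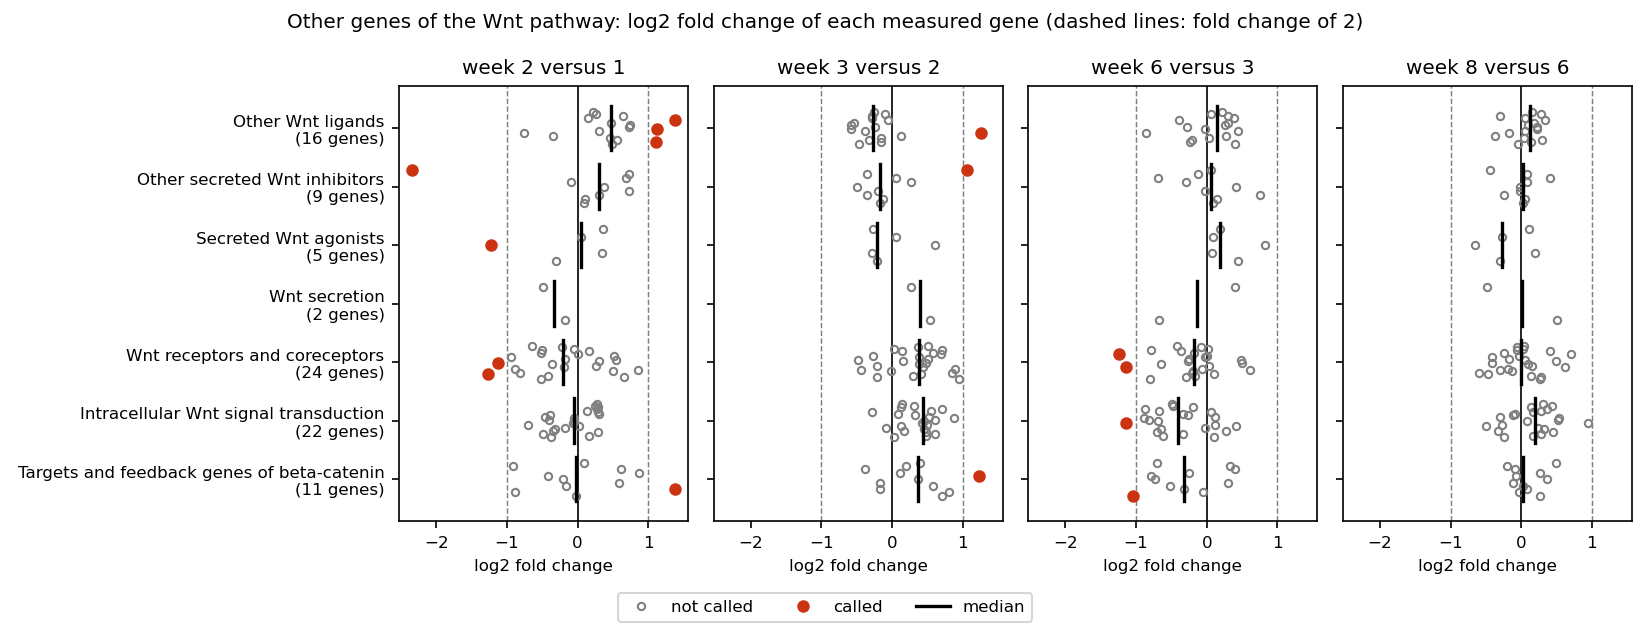
Each point is the log2 fold change (horizontal axis) of 1 of the 89 other Wnt pathway genes, in 7 lists, for the 4 successive comparisons, with filled points for genes called, bars at the list medians and dashed lines at a fold change of 2. The point farthest from 0 is Sostdc1 in week 2 versus 1, at -2.34, and no point of week 8 versus 6 is filled.

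Arrays of the same week also differed from each other, and part of these differences followed the marker lists. For each gene the deviation of each array from the mean of its week was set against the same deviation of 16 marker lists, which gave 160 relations over the 29 independent arrays, with two-sided permutation p-values from 100000 shuffles within weeks, the smallest of which is 1e-05. Of the 160, 32 had a Benjamini-Hochberg adjusted p of at most 0.05, and they fell on 7 of the 10 genes, with 10 on Sfrp2 and none on Wnt2, Frzb or Wif1. The same relations were not computed for all genes, so whether such counts are particular to these genes was not tested. All relations are between arrays of the same dissections and share their technical variation, and because week 6 replicates 4 and 6 deviate by opposite amounts, r is also given over the 23 arrays of the other weeks.

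Sfrp2 followed the fibroblast and matrix markers most closely, with a Pearson r of 0.930 and a Spearman rho of 0.894 (permutation, adjusted p = 0.000533 and 0.0008), and r was 0.907 without the 2 arrays farthest from the median and 0.930 without week 6. Within single weeks r lay between 0.793 and 0.992. Sfrp4 followed the same list with r = 0.784 and rho = 0.841 (permutation, adjusted p = 0.000533 and 0.0008), between 0.715 and 0.947 within weeks, 0.750 without the 2 farthest arrays and 0.748 without week 6. Dkk2 did so with r = 0.825 and rho = 0.771 (permutation, adjusted p = 0.000533 and 0.0016), between 0.641 and 0.996 within weeks, likewise 0.825 without the 2 farthest and 0.757 without week 6. Within each week these 3 inhibitors tended to be high in the arrays in which collagen and proteoglycan genes were high. Other relations also had a permutation adjusted p of at most 0.05. For Sfrp2 they were endothelium (r = 0.713), smooth muscle and pericytes (0.708), pigment epithelium (0.614), striated muscle (0.59) and leukocytes (0.557). Cartilage-like cells (0.543), Mueller glia (0.511), cycling cells (-0.56) and surface epithelium (-0.514) were the rest. For Sfrp4 they were leukocytes (0.612), striated muscle (0.521) and smooth muscle and pericytes (0.509). Dkk2 followed the leukocyte and macrophage markers as closely, with r = 0.840 and rho = 0.789 (permutation, adjusted p = 0.000533 and 0.0008), 0.761 without the 2 farthest and 0.764 without week 6. It was also related to the smooth muscle and pericyte markers (r = 0.735, permutation, adjusted p = 0.000533) and to the melanocyte markers (r = 0.685, permutation, adjusted p = 0.00262). The endothelium markers gave r = 0.652 with Dkk2 (permutation, adjusted p = 0.00249). The relation within weeks did not extend to the weekly means of Sfrp4, which were highest in weeks 6 and 8, when the fibroblast and matrix list averaged 9.51 and 9.54, against 10.08 in week 1.

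Of the ligands, Wnt4 and Wnt5a followed other lists most closely, with 3 and 2 relations past the adjusted p, and Wnt2 had none. Wnt4 followed the surface epithelium markers with r = 0.729 and rho = 0.629 (permutation, adjusted p = 0.0016 and 0.0143), between 0.295 and 0.990 within weeks, 0.769 without the 2 farthest arrays and 0.788 without week 6. Wnt5a followed the melanocyte markers with r = 0.740 and rho = 0.789 (permutation, adjusted p = 0.000533 and 0.0008), between 0.757 and 0.972 within weeks, 0.761 without the 2 farthest and 0.748 without week 6. Pmel and Mlana stand in both the melanocyte and the pigment epithelium lists. Wnt5a was also related to the smooth muscle and pericyte markers (r = 0.610, permutation, adjusted p = 0.00286). Sfrp1 was also related to the surface epithelium markers, with r = 0.635 and rho = 0.456 (permutation, adjusted p = 0.0243 and 0.0994). This r fell to 0.377 without the 2 farthest arrays, so much of its size depended on them. Within single weeks r was positive in all 5, between 0.11 and 0.976. With the cycling cell markers Sfrp1 had r = 0.739 and rho = 0.516 (permutation, adjusted p = 0.00286 and 0.0547), 0.614 without the 2 farthest and 0.701 without week 6. Against fibroblast and matrix markers Sfrp1 was inverse, with r = -0.497 and rho = -0.444 (permutation, adjusted p = 0.0358 and 0.0725), -0.515 without the 2 farthest and -0.442 without week 6, the opposite sign to Sfrp2 and Sfrp4. The inverse relation was larger with the cartilage-like cell markers, with r = -0.665 and rho = -0.495 (permutation, adjusted p = 0.00629 and 0.0547). Dkk3 had 2 relations past the adjusted p. With the melanocyte markers r was 0.452 and rho 0.4 (permutation, adjusted p = 0.0418 and 0.133). With the adipocyte markers r was -0.486 and rho -0.463 (permutation, adjusted p = 0.0377 and 0.0725).

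**Figure D4:**
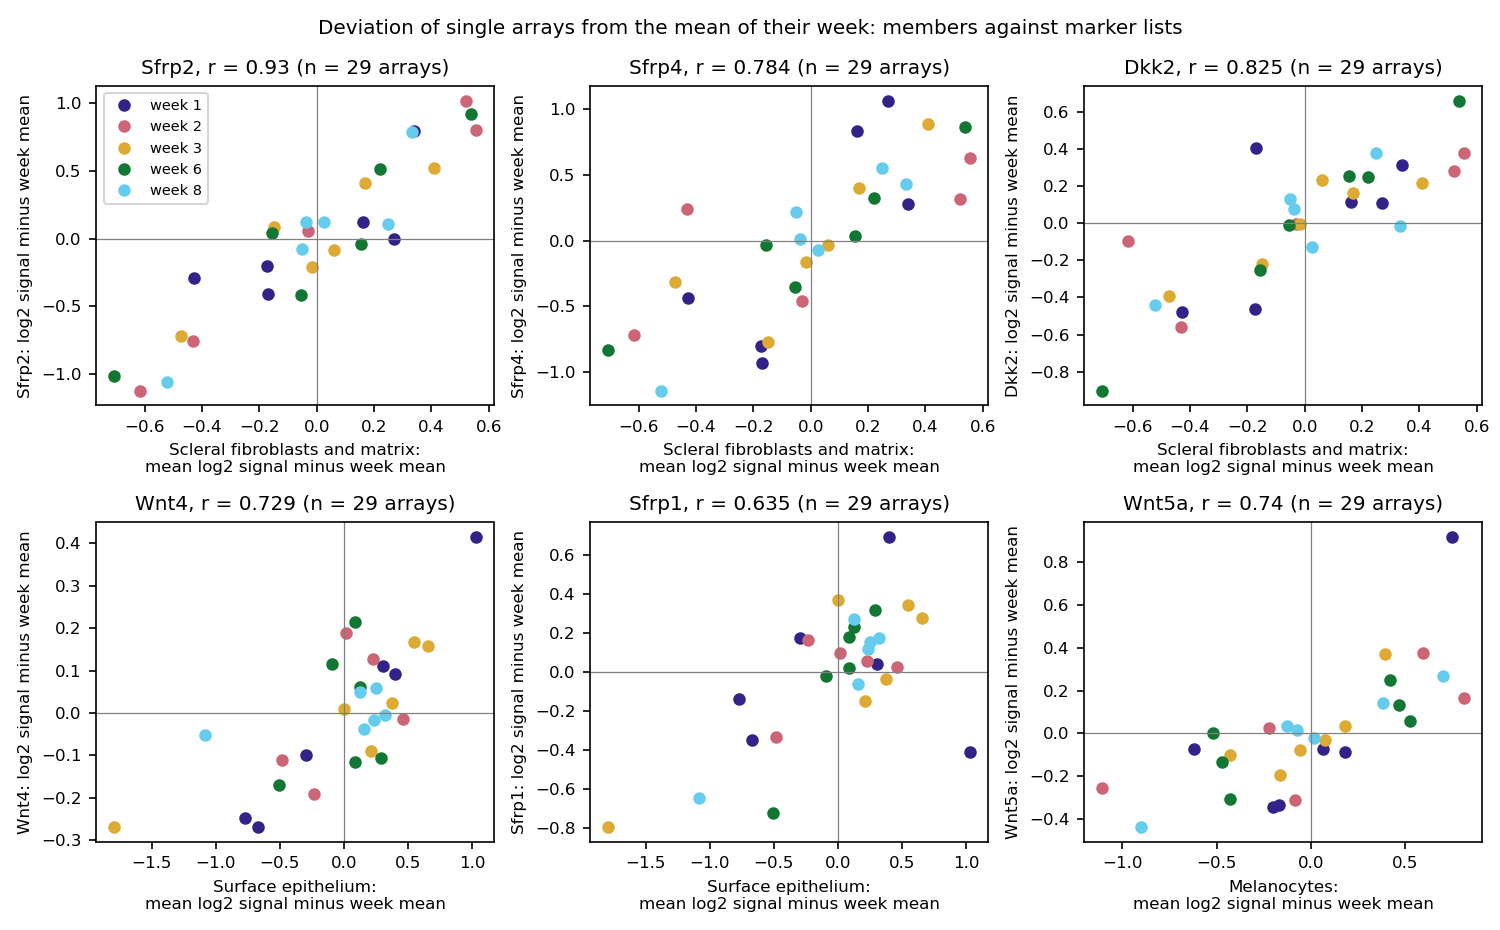
Each point is 1 of the 29 independent arrays, coloured by week, and both axes are log2 signals minus the mean of the week, for the gene on the vertical axis and for the mean of the marker list on the horizontal axis. The arrays lie along a rising line for Sfrp2 (r = 0.930), Sfrp4 (r = 0.784) and Dkk2 (r = 0.825) against fibroblast and matrix markers, and more loosely for Wnt4, Sfrp1 and Wnt5a, where single arrays lie far from the rest.

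The genes whose signals were most like those of each member over the 29 independent arrays, among genes above the median signal, are given as a description in which differences between weeks and within weeks both enter. Wnt4 was most like Tgm5, Cdcp1 and Fat2 (r between 0.934 and 0.939), and Tgm5 encodes a transglutaminase of surface epithelium. Sfrp2 was most like Apod, C1s1 and Rarres2 (r between 0.868 and 0.904), which encode secreted proteins, and Dkk2 was most like Ltbp1, Thbd and Timp2 (r between 0.900 and 0.921), of which Ltbp1 binds latent TGF-beta and Timp2 inhibits metalloproteinases. Wnt5a was most like Plin2, Igf1 and Cdk2 (r between 0.895 and 0.925), and Dkk3 was most like Ppm1h, Aldoc and Slc13a4 (r between 0.913 and 0.934). Frzb was most like Camk2b, Adcy2 and Itgb1bp2 (r between 0.875 and 0.884), of which Itgb1bp2 encodes the muscle protein melusin. The closest genes to the other members were Tuft1 for Sfrp1 (r = 0.889), Folr1 for Wif1 (r = 0.853), Clip1 for Sfrp4 (r = 0.842) and Ptpn3 for Wnt2 (r = 0.751).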

How the data were processed

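The authors deposited log2 signals in 1 column per array, over 35556 transcript clusters. The methods name robust multiarray averaging and a batch removal on scan date, whereas GCRMA and Partek 6.5 stand in the submitters' processing notes, so the exact summary is not settled. Whether the values were taken after batch removal, and the scan date of each array, are not given in the sources used here. Scan date was therefore not tested. The values were used unscaled. limma 3.58.1 in R 4.3.3 fitted a mean for each week to all 30 arrays at once, as planned before week 2 replicate 4 was seen to equal the mean of the other 5 week 2 arrays, and each comparison was adjusted by Benjamini-Hochberg. The labels give the arrays as biological replicates of 1 sclera each, and why the values of week 2 replicate 4 are tied to the others was not tested. The mice were related, so p-values measure the spread between these samples. No detection call was used, and the number of arrays limits the precision. Gene symbols came from the platform annotation, where 21789 transcript clusters have 1 symbol, 1621 several and 12146 none. The fit was tested on simulated data. The members, gene lists, named genes and relations were chosen with earlier results of these data known. Named from the other lists were genes called in 1 of the 5 comparisons, up to the 4 with the largest fold change per list, and Lgr5, Axin2, Porcn, Wls and Tcf7 were added after their values were seen. Alternatives were a filter on symbols or signal, the other transcript cluster of Wnt4, array weights, 2 scalings, a fit of the 2 weeks compared, a replicate block, an array spread covariate, no moderation, no fold threshold, leaving out each array and a fit that allows for the tied arrays.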

Additional observations from a re-analysis of the deposited data

Results flagged for a closer look

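In each week the brightest or dimmest array of a gene was compared with the range of the others, over 6 arrays a week and the 5 independent ones of week 2. Of 50 such groups, 6 had an array whose gap to its neighbour was large against the whole range, where chance gives about 1 in 20. Wnt5a was 8.95 in week 1 replicate 1, with the other arrays between 7.69 and 7.96. Sfrp1 stood low in 3 weeks, at 8.54 in week 2 replicate 3, at 8.40 in week 6 replicate 3 and at 8.54 in week 8 replicate 2, while the other arrays of those weeks lay at 8.90 or above, at 9.10 or above and at 9.12 or above. Sfrp4 was 7.58 in week 8 replicate 6, with the others between 8.66 and 9.28. Dkk3 was 10.39 in week 3 replicate 1, with the others between 9.42 and 9.76.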

How the results depend on the processing

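With an adjusted p alone the counts were 10, 6, 3 and 2 genes over the successive comparisons and 6 in week 8 versus 1. With the array spread covariate, which was first tried after these data were seen, the successive counts were 2 (Wnt5a and Sfrp4 lost), 0 (Sfrp2 and Dkk3 lost), 2 and 1 (Sfrp2 gained in both). Array quality weights called 1 gene in week 8 versus 6, Sfrp2. The filter on signal left 1 call in week 8 versus 1, since Frzb was then not tested. The fit that allows for the tied arrays, added after the data were seen, gave 4, 2, 1, 0 and 2 calls, the same genes. Leaving out each array in turn, and each other week 2 array together with replicate 4, gave 2 to 5, 1 to 2, 1 and 0 to 1 calls over the successive comparisons and 2 to 3 in week 8 versus 1. Log2 fold changes changed sign only where neither value was called. These were Wnt2 (-0.015) and Dkk3 (0.005) in week 8 versus 6 with array weights, Wnt4 (-0.054) and Sfrp1 (-0.038) in week 6 versus 3 with median centring, and Sfrp1 in week 3 versus 2 with quantile normalization (-0.099). With the spread covariate they were Wnt4 (0.054) and Sfrp1 (-0.176) in week 3 versus 2, Wnt4 (-0.145) and Dkk2 (0.123) in week 6 versus 3 and Sfrp1 (-0.015) in week 8 versus 6. The second transcript cluster of Wnt4 gave 0.074 in week 3 versus 2 and -0.574 in week 6 versus 3. It was called higher in week 2 versus 1 (1.375) and in week 8 versus 1 (1.519), where the brighter cluster was not called. Leaving out single arrays turned the sign of 5 uncalled values, which ranged between -0.109 and 0.194 for Sfrp1 and between -0.020 and 0.068 for Wnt4 in week 6 versus 3, between -0.078 and 0.196 for Sfrp1 and between -0.011 and 0.074 for Wnt2 in week 8 versus 6, and between -0.117 and 0.253 for Sfrp2 in week 8 versus 1. The cause of these differences was not tested. Replicate numbers did not pair the arrays (median r of 0.02 between same-numbered independent arrays of different weeks, 13 of 56 pairs over 0.1), and with the replicate block the calls stayed at 4, 2, 1, 0 and 2, the same genes. The genes called from the other pathway lists and Axin2 were run through the same alternatives after their values were seen, and none changed sign. Gpc4, Wnt3a, Wnt10a, Sostdc1 in week 3 versus 2, Fzd8 and Apcdd1 were not called with the spread covariate. Quantile normalization ended the calls of Gpc4, Apcdd1, Lgr5 and, in week 3 versus 2, Sostdc1, and median centring that of Lgr5. How far the dim genes Frzb, Wif1 and Wnt2 stood above the array background was not tested.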
